A study of Homo sapiens with 18 samples.

Results

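The nuclear genes of the mitochondrial ribosome were examined in HL60, THP-1 and U937 cells treated with phorbol 12-myristate 13-acetate (PMA) or with its vehicle. Members were all genes whose only symbol in the platform annotation begins with MRPL or MRPS followed by a digit. There were 76 of them, 47 named for the large and 29 for the small subunit, among 16909 genes with at least 1 probe set. Of these, 72 (44 large, 28 small) had the 3 probe sets needed for testing, among 16241 genes tested. MRPL15, MRPL36, MRPL49 and MRPS28 did not. The log2 values of a gene's probe sets were averaged to give its value.

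HL60, THP-1 and U937 are human cell lines from an acute myeloid leukaemia, an acute monocytic leukaemia and a histiocytic lymphoma. The PMA groups received 30 nM PMA, an activator of protein kinase C under which these lines take on features of macrophages, for 3 days. The DMSO groups received the vehicle, dimethyl sulfoxide, at 1/1000 of the volume for the same time. Each line had 3 PMA and 3 DMSO arrays, 18 human exon arrays in 6 groups, all from total RNA of cells grown in RPMI1640 with serum. Each cell type is represented by 1 established line. The labels number the arrays of a group without saying if each is a culture of its own. The p-values therefore cover the spread among these arrays, which may be technical, and the number of arrays limits the precision.

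The mitochondrial ribosome translates the few proteins that mitochondrial DNA encodes, all of them parts of the respiratory chain and the ATP synthase. All of its proteins are nuclear products made in the cytosol and imported, while its ribosomal RNAs come from the mitochondrial genome. The small subunit decodes the messenger RNA and the large subunit forms the peptide bond, at the inner membrane. The names do not follow the structure in every case. MRPS30 and MRPS18A are proteins of the large subunit, and MRPS36, now named KGD4, is a component of the oxoglutarate dehydrogenase complex.

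The U937 PMA 2 array stood apart from the rest. Its median was 6.18, where the others had 6.43 to 6.95, and its number of distinct values was 83228, where the others had 214471 to 220516. The members' median change in U937 is therefore also given by array number, and their counts also without both arrays numbered 2. The U937 results of the gene lists include this array. Of the 8 myeloid marker genes, 7 had a mean above 7 on the log2 scale, among them SPI1 (8.37 to 10.15 over the 18 arrays), ITGB2 (9.36 to 12.37) and LYZ (8.59 to 12.84). The myeloperoxidase gene MPO had a mean of 6.80 and a range of 4.84 to 12.72. Mean levels of the other markers were 3.84 to 5.83 for 4 T cell genes, 3.59 to 6.86 for 3 epithelial genes, 3.03 to 6.26 for 3 fibroblast genes, 4.59 to 6.56 for 2 erythroid genes and 5.75 for the B cell gene CD79A. The highest of these were KRT8 (6.38 to 7.25), KLF1 (5.81 to 6.97) and COL1A1 (5.89 to 6.66), and the lowest the defining genes DCN (2.60 to 3.37), EPCAM (3.38 to 3.83) and CD3D (3.35 to 4.48). Of the endothelial genes, CDH5 lay at 4.95 to 5.77. PECAM1, which endothelial and myeloid cells share, lay at 7.64 to 11.11.

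After PMA, transcripts of mitochondrial ribosomal proteins were lower in U937, and fewer members passed the test in HL60 and THP-1. In U937, 25 of 72 members fell and 0 rose, and the median change was -0.86 log2 units. Over all genes tested in U937, 16.5% fell and 5.5% rose (22% either way), and the median change was -0.07. In HL60, 4 members fell and 0 rose, with a median change of -0.29, against 10.7% lower, 12.3% higher (23% either way) and a median of 0.13 over all genes. In THP-1, 4 members fell and 0 rose, with a median of -0.29, against 13.2% lower, 9.38% higher (22.6% either way) and a median of 0.04 over all genes. As shares of the members, these were 34.7% in U937 and 5.56% in both HL60 and THP-1. The share of fallen members was above the background in U937 and below it in HL60 and THP-1, an order that other settings turn: with the array number as a block it was above the background in all 3 lines, and without both U937 arrays numbered 2 it was 8.33% in U937, below the 10.2% of all genes. Without the block and with all arrays, the members' median SE was 0.33 log2 units, against 0.23 over all genes. The shares of members and of all genes are therefore compared at unequal precision. Calls are at an adjusted p under 0.05 in limma. At an unadjusted p under 0.05 in limma, 2 members were higher and 7 lower in HL60, 0 and 12 in THP-1 and 1 and 40 in U937. The share of all genes at that threshold is not given here, so these counts have no background beside them. With each array centred on its median, all genes split into 14.4% higher and 14.3% lower in U937 and 16.8% and 15.7% in THP-1. In HL60 14.9% of all genes were then higher and 14.9% lower. Members split into 1 higher and 23 lower in U937 and 0 and 7 in both THP-1 and HL60, with medians of -0.62, -0.21 and -0.34. The members lower were 31.9% in U937, above the background, and 9.72% in both THP-1 and HL60, below it. With centring the median SE was 0.29 log2 units for members and 0.18 for all genes. In bulk RNA, fewer cells of a type and less RNA per cell cannot be told apart.

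The changes of single members leaned the same way in most cases. In U937, 69 of 72 members had a change below 0, in THP-1 63 and in HL60 54. Over all genes these shares were 59.1%, 46.3% and 36.9%. The 3 PMA arrays lay below all 3 DMSO arrays for 35 members in U937 (19.5% of all genes), 11 in HL60 (16.4%) and 5 in THP-1 (19.8%). They lay above for 1 in U937 (5.86%), 2 in HL60 (29.7%) and 0 in THP-1 (23.2%). The largest change below 0 that did not pass the test was that of MRPS33 in U937, named after its value was seen, at -1.71 ± 1.00 log2 units (SE, 3 arrays per group), and it was called lower there with the block (adjusted p = 0.000235, and 7.08e-06 to 0.666 over its settings). The plot of the change of every member shows the leftward lean in all lines and the wide error bars of members such as MRPL13, MRPL33 and MRPS33.

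**Figure D1:**
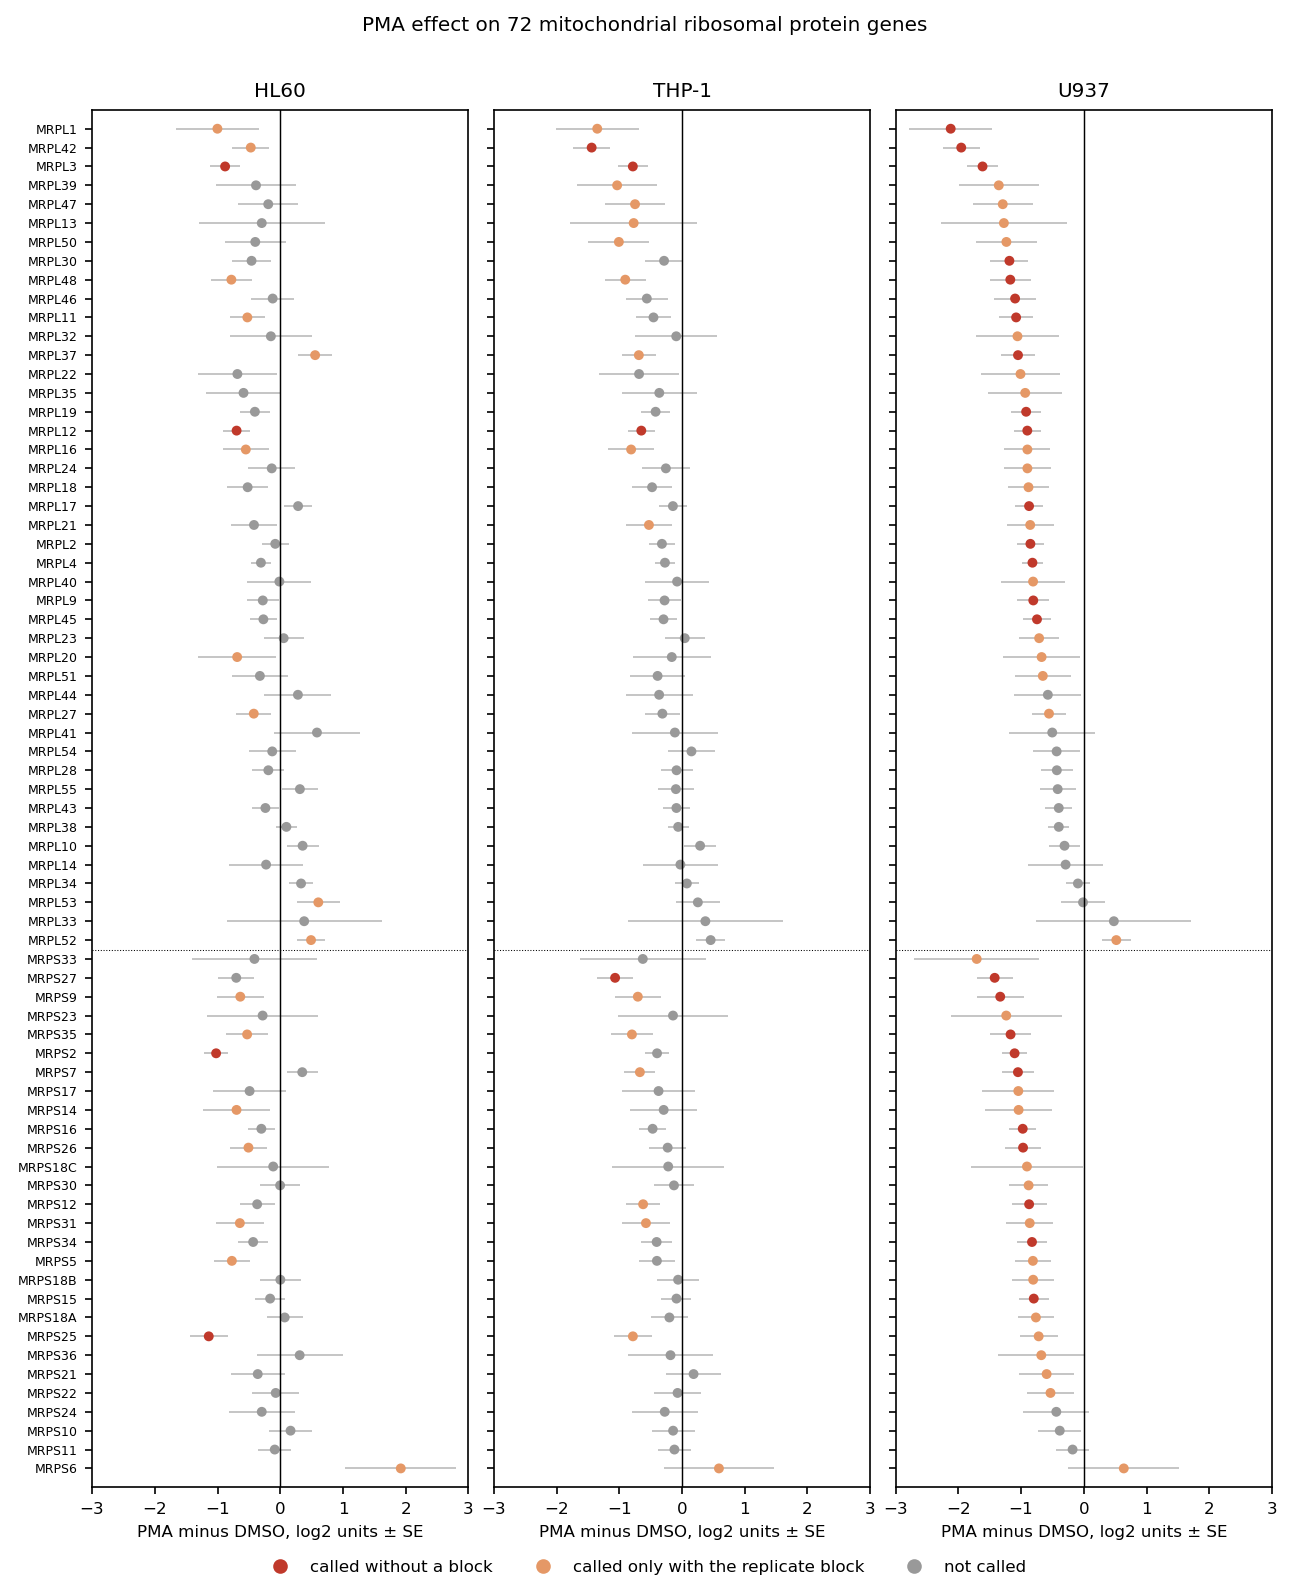
Change of the 72 tested members (PMA minus DMSO, log2 units) in HL60, THP-1 and U937, with large-subunit names above the dotted line and small-subunit names below it, ordered by the change in U937. Points are estimates from 3 PMA and 3 DMSO arrays and bars are the SE of the limma fit without a block. Red points passed the test without a block (4, 4 and 25), orange points passed only with the array number as a block, and MRPS6 stands at the right in each line.

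Arrays of a line that share a number deviated together, so the number was also fitted as a block. With the block, 17 members fell and 4 rose in HL60 (16% and 18.4% of all genes), and 19 fell and 1 rose in THP-1 (20.7% and 14.1%). In U937, 55 fell and 2 rose (25.5% and 7.76%). As shares of the members, 23.6% fell in HL60, 26.4% in THP-1 and 76.4% in U937. The block left every estimate as it was, while the members' median SE was 0.19 log2 units with it and 0.33 without it. In both fits the share of risen members was below that of all genes in each line.

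The members' level differed between arrays of the same treatment. On HL60 PMA 1 the 72 members stood on average 0.61 log2 units above their group mean, and on HL60 DMSO 1 they stood 0.53 above theirs. On THP-1 PMA 3 they stood at -0.59, and on THP-1 DMSO 3 at -0.74. In U937 the numbers matched less well: PMA 2 stood at -0.34 and DMSO 2 at 0.22, and PMA 3 at -0.04 and DMSO 3 at -0.57. Other abundant families moved with them: 71 cytoplasmic ribosomal genes stood at 0.85 on HL60 PMA 1 and 0.70 on HL60 DMSO 1, and 65 respiratory chain genes at 0.90 and 0.84. On the same arrays, the mean over all genes deviated by 0.09 and 0.08. These deviations lie beside every member's error, and their part in the results was not tested.

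**Figure D2:**
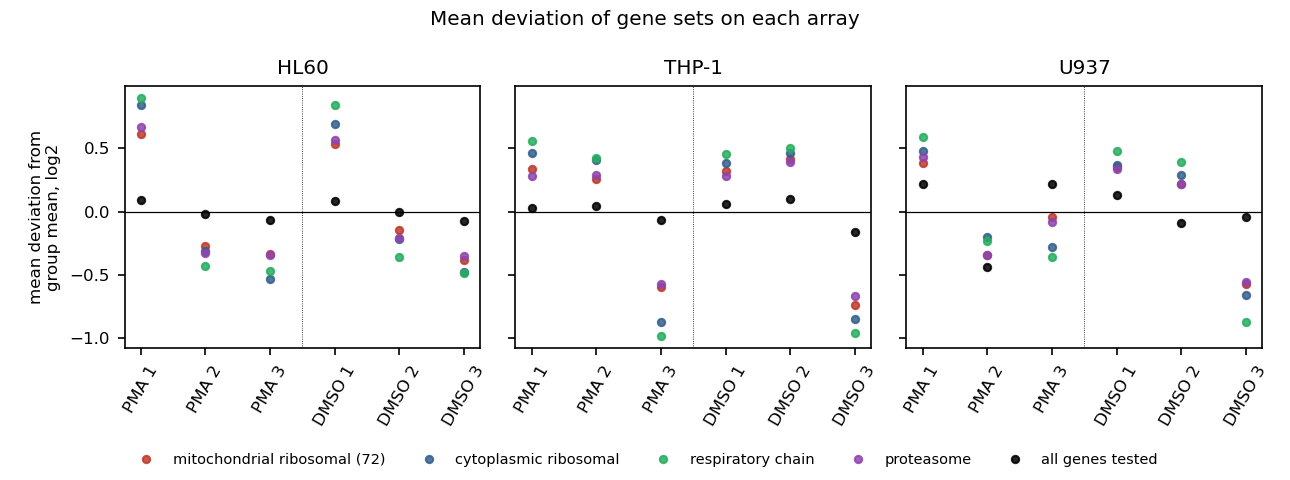
Mean deviation from the group mean (log2 units) on each of the 18 arrays, for the 72 members, 71 cytoplasmic ribosomal, 65 respiratory chain and 37 proteasome genes and for all 16241 genes tested. PMA arrays are left and DMSO arrays right of the dotted line. Arrays numbered 1 in HL60 stand high and arrays numbered 3 in THP-1 stand low for all 4 families under both treatments, with all genes nearer to 0 on those arrays. On U937 PMA 2 and PMA 3 all genes lie farther from 0 than the members, at -0.44 and 0.22.

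Within same-numbered arrays the members' median change was below 0 in all 9 pairs. In U937 it was -0.87 for number 1, -1.41 for number 2 and -0.28 for number 3, where all genes had medians of 0.03, -0.42 and 0.05. In HL60 the members' medians were -0.19, -0.36 and -0.19 for numbers 1, 2 and 3, and in THP-1 they were -0.30, -0.55 and -0.16. All 3 pairs were below 0 for 57 of 72 members in U937 (30.4% of all genes), 42 in HL60 (26.4%) and 40 in THP-1 (31.4%). All 3 were above 0 for 2 members in U937 (13% of all genes), 13 in HL60 (45%) and 7 in THP-1 (35.4%). Without both U937 arrays numbered 2, the members' median change in U937 was -0.56 and 6 members fell (8.33%, against 10.2% of all genes). With the block and without those arrays, 36 fell (50%, against 17.5%).

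**Figure D3:**
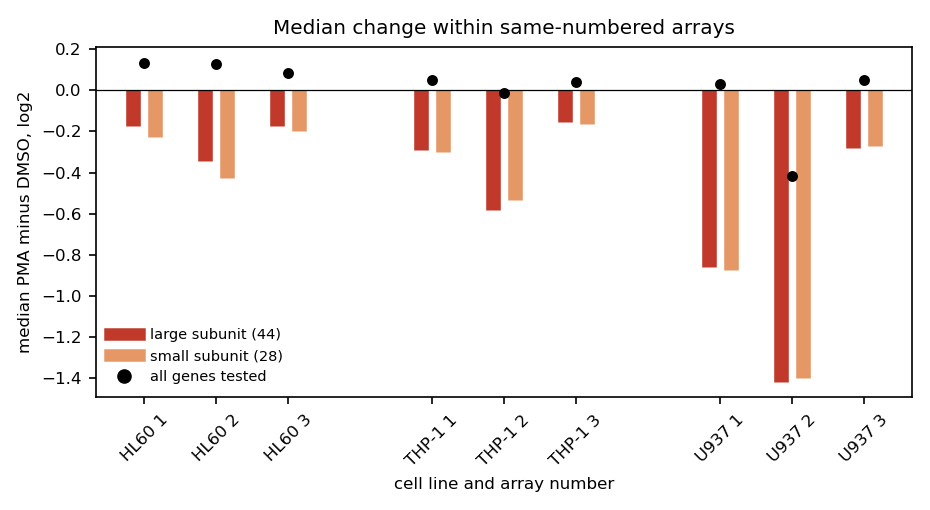
Median change (PMA minus DMSO, log2 units) within each pair of same-numbered arrays, for the 44 large-subunit members (red bars), the 28 small-subunit members (orange bars) and all genes tested (black points). Both subunits lie below 0 and below all genes in each of the 9 pairs. U937 number 2 has the lowest values, with all genes at -0.42.

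The counts also depended on single arrays. In U937, 14 members fell without DMSO 1 and 14 without DMSO 2 (19.4%, against 11% and 13.7% of all genes), and 15 without PMA 2 (20.8%, against 11.5%). In HL60, 1 fell without DMSO 1 (1.39%, against 8.21%), and 2 without PMA 2 or without PMA 3 (2.78%, against 8.8% and 8.37%). In THP-1, 14 fell without DMSO 3 (19.4%, against 14.9% of all genes), which puts the members above the background there. The THP-1 count was 1 without THP-1 DMSO 1, 2 without DMSO 2 or without PMA 3, and 8 without the U937 PMA 2 array (11.1%, against 16.9%). For the THP-1 counts of 1 and 2 the share of all genes is not given here, so they have no background beside them.

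Large-subunit and small-subunit genes were then compared. In U937 the median change was -0.85 for the 44 large-subunit and -0.87 for the 28 small-subunit members. There 15 (34.1%) and 10 (35.7%) fell, against 16.5% of all genes. In HL60 the medians were -0.25 and -0.33, with 2 (4.55%) and 2 (7.14%) fallen, against 10.7% of all genes. In THP-1 they were -0.30 and -0.28, with 3 (6.82%) and 1 (3.57%) fallen, against 13.2%. With the block, 31 of 44 large-subunit and 24 of 28 small-subunit members fell in U937, where 25.5% of all genes fell. In HL60 9 and 8 then fell (16% of all genes), and in THP-1 12 and 7 (20.7%). On single arrays, the mean of the large minus the mean of the small subunit was -0.02 ± 0.02 log2 units in U937 PMA and -0.05 ± 0.07 in U937 DMSO (SD, n = 3). It was 0.07 ± 0.08 in HL60 PMA and 0.01 ± 0.03 in HL60 DMSO, and 0.01 ± 0.04 in THP-1 PMA and 0.04 ± 0.05 in THP-1 DMSO. Within same-numbered pairs this balance changed by 0.01, 0.10 and 0.08 in HL60, by -0.02, -0.02 and -0.04 in THP-1 and by 0.09, 0.09 and -0.06 in U937 (PMA minus DMSO, numbers 1, 2 and 3). The changes were thus small and all above 0 in HL60, all below 0 in THP-1 and of both signs in U937. With MRPS30 and MRPS18A counted in the large subunit and MRPS36 left out, the difference of the medians (large minus small) was 0.14 in HL60, 0.08 in THP-1 and 0.02 in U937.

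MRPL3 and MRPL12 fell in all 3 lines, 2 of 72 members, against 5.94% of all genes. No member rose in all 3 (2.66% of all genes). MRPL3, a core protein of the large subunit with a bacterial counterpart, had 19 probe sets. In U937 it lay at 9.07, 8.44 and 9.05 log2 units on the PMA arrays 1, 2 and 3, against 10.65, 10.54 and 10.21 on the DMSO arrays. It fell by 1.61 ± 0.24, to 0.327 of the DMSO level (adjusted p = 0.000108), and all 19 probe sets went the same way. The groups did not overlap, and the change was -2.10 between the arrays numbered 2 and -1.37 over numbers 1 and 3.

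In HL60, MRPL3 lay at 9.71, 9.42 and 9.02 on PMA arrays, against 10.44, 10.35 and 10.00 on DMSO arrays, and fell by 0.88 ± 0.24 (adjusted p = 0.0125). In THP-1 it lay at 9.52, 9.60 and 9.34 on PMA arrays, against 10.52, 10.54 and 9.76 on DMSO arrays, and fell by 0.78 ± 0.24 (adjusted p = 0.0265). The groups did not overlap in either line, and the low DMSO value of THP-1 is that of array 3. The HL60 call was lost without DMSO 1 or PMA 3, and the THP-1 call without DMSO 1, DMSO 2, PMA 1 or PMA 3 and with the THP-1 arrays fitted alone (adjusted p up to 0.0805 and 0.135). The U937 call held under every setting tried.

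MRPL12 forms the stalk that binds translation factors on the large subunit and also binds the mitochondrial RNA polymerase. In U937 it lay at 8.66, 8.15 and 8.69 on PMA arrays, against 9.57, 9.50 and 9.13 on DMSO arrays, and fell by 0.90 ± 0.22 (adjusted p = 0.00556). In HL60 it lay at 8.62, 8.57 and 8.35 on PMA arrays, against 9.37, 9.12 and 9.13 on DMSO arrays, and fell by 0.70 ± 0.22 (adjusted p = 0.0262). In THP-1 it lay at 8.91, 8.51 and 8.24 on PMA arrays, against 9.44, 9.35 and 8.81 on DMSO arrays, and fell by 0.65 ± 0.22 (adjusted p = 0.0398). The groups were apart in U937 and HL60, and in THP-1 PMA 1 lay above DMSO 3. The U937 call was lost without both arrays numbered 2 (adjusted p = 0.0734, the highest over its settings). Leaving out 1 array ended the HL60 call for DMSO 1, DMSO 2, PMA 2 and PMA 3 (adjusted p up to 0.107). It ended the THP-1 call for DMSO 1, DMSO 2, PMA 2, PMA 3, HL60 DMSO 2 and HL60 PMA 2 (adjusted p up to 0.173).

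With the block, 10 members fell in all 3 lines, against 10.1% of all genes. They were MRPL1, MRPL3, MRPL12, MRPL16, MRPL42, MRPL48, MRPS9, MRPS25, MRPS31 and MRPS35, and all 10 also fell in all lines with the block and array-median centring together. MRPL48 and MRPS35 are given as examples chosen after their values were seen. MRPL48, a mitochondrion-specific protein of the large subunit, changed by -0.78 ± 0.20 in HL60, -0.90 ± 0.20 in THP-1 and -1.17 ± 0.20 in U937 (SE with the block). MRPS35, a mitochondrion-specific protein of the small subunit, changed by -0.53 ± 0.19, -0.80 ± 0.19 and -1.17 ± 0.19 in the same order.

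The promoter windows of 4 members are shown because MRPL3 and MRPL12 fell in all 3 lines, MRPL42 had the largest fall in THP-1 and MRPS6 lay on the other side of 0 in each line. They run from 250 bases before to 50 after the gene's start (RefSeq, GRCh38.p14, strand of the gene). Capitals mark matches to 4 motifs searched on both strands: GCGCA and GCGC with 1 base of any kind between them (NRF1), CCGGAAG (ETS factors such as GABP), AANATGGCG (YY1) and CACGTG (the E-box bound by MYC). The windows are chr3:131502922-131503221 (minus strand) for MRPL3, chr17:81703117-81703416 (plus) for MRPL12, chr12:93467264-93467563 (plus) for MRPL42 and chr21:34073328-34073627 (plus) for MRPS6.
MRPL3: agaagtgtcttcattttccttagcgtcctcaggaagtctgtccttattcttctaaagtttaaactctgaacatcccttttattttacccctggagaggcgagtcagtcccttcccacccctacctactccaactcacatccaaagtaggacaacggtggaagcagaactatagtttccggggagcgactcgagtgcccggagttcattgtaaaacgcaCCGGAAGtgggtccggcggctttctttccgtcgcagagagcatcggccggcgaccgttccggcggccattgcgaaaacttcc
MRPL12: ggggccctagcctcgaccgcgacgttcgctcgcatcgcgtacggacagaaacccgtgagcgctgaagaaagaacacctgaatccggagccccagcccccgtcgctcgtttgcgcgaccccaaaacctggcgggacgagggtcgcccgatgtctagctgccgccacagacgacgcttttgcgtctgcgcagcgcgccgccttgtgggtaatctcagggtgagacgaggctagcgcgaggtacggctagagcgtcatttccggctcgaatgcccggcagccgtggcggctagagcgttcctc
MRPL42: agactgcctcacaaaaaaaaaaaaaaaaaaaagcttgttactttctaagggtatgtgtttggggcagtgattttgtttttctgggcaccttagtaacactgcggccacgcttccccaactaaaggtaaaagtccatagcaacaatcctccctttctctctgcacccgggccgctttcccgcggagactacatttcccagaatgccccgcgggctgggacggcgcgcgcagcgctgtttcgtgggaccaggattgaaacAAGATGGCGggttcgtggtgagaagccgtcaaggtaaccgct
MRPS6: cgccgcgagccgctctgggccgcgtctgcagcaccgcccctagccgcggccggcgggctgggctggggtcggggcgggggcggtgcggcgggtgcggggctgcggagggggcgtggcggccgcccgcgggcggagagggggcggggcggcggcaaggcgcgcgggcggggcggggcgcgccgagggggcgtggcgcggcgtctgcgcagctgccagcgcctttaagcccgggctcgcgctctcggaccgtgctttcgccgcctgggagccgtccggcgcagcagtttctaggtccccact

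MRPL3 holds an ETS match that begins 32 bases before the start, and MRPL42 a YY1 match that begins 8 bases after it. The windows of MRPL12 and MRPS6 hold none of the letters searched. Of the 76 members, 68 had a window. The ETS letters stood in 28 of them (41.2%), against 14.2% of 15842 windows of protein-coding genes and 10.7% of all 27305 windows. The YY1 letters stood in 18 (26.5%), against 4.81% and 3.37%. The NRF1 letters stood in 7 (10.3%), against 8.57% and 6.28%, and the E-box in 7 (10.3%), against 8.88% and 7.43%. ETS and YY1 matches overlapped in 0 members, and 21 members held none of the 4 motifs. Of the 24 windows of members that fell in U937, 7 held ETS letters (29.2%) and 6 YY1 letters (25%). These are counts of letters in a window and show no binding.

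MRPS25 and MRPS2 had the largest falls in HL60. MRPS25, a mitochondrion-specific protein of the small subunit, lay at 8.04, 7.06 and 7.23 log2 units on HL60 PMA arrays, against 8.95, 8.41 and 8.38 on DMSO arrays. All PMA values were lower, and the change was -1.14 ± 0.30 (adjusted p = 0.0092), lost without DMSO 1 or PMA 2 (adjusted p up to 0.0576). MRPS2, the counterpart of a bacterial protein near the exit of the messenger RNA, lay at 7.38, 7.44 and 7.09 on HL60 PMA arrays, against 8.35, 8.45 and 8.19 on DMSO arrays. The groups were well apart, and MRPS2 fell by 1.02 ± 0.20 (adjusted p = 0.000691, at most 0.0482 over its settings). MRPS2 fell by 1.10 ± 0.20 in U937 too, and in THP-1 it changed by -0.40 ± 0.20 (adjusted p = 0.171).

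MRPL42, a mitochondrion-specific protein of the large subunit, had the largest fall in THP-1. It lay there at 6.65, 7.22 and 6.52 log2 units on PMA arrays, against 8.37, 8.70 and 7.64 on DMSO arrays, and fell by 1.44 ± 0.30 (adjusted p = 0.00163). In U937 it lay at 6.70, 6.24 and 6.63 on PMA arrays, against 8.76, 8.41 and 8.26 on DMSO arrays, and fell by 1.95 ± 0.30, to 0.258 of the DMSO level (adjusted p = 0.000115). Both groups stood apart in both lines, and both calls held under every setting tried. In HL60 it lay at 8.30, 7.86 and 7.40 on PMA arrays, against 8.79, 8.19 and 7.99 on DMSO arrays, with a change of -0.47 ± 0.30 (adjusted p = 0.308, or 0.0359 with the block, and 0.00403 to 0.723 over its settings). The HL60 groups overlapped, with PMA 1 above DMSO 2 and DMSO 3.

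MRPS27, a small-subunit protein of the pentatricopeptide repeat type, lay at 7.19, 7.50 and 8.08 on THP-1 PMA arrays, against 8.97, 8.76 and 8.24 on DMSO arrays. It fell by 1.07 ± 0.29 there (adjusted p = 0.0112), with array 3 the highest of the PMA and the lowest of the DMSO arrays. The call was lost without DMSO 1 or PMA 1 (adjusted p up to 0.0717). In U937 MRPS27 fell by 1.42 ± 0.29 with 17 of 17 probe sets below 0, and in HL60 it changed by -0.70 ± 0.29 (adjusted p = 0.0939).

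MRPL1 belongs to the mobile stalk of the large subunit near the exit of transfer RNA. It lay at 6.84, 6.48 and 5.71 log2 units on U937 PMA arrays, against 8.91, 9.06 and 7.42 on DMSO arrays, and fell by 2.12 ± 0.66, to 0.230 of the DMSO level (adjusted p = 0.0282). Array 3 was the lowest under both treatments. Each of DMSO 1, DMSO 2, PMA 2 and PMA 3 ended this call when left out, as did both arrays numbered 2 (adjusted p up to 0.189). MRPL1 stood at 0.499 of the DMSO level in HL60 and 0.392 of it in THP-1, and it was called lower in both lines with the block alone. MRPS9 and MRPL30 are counterparts of bacterial proteins. MRPS9 fell by 1.33 ± 0.37 in U937 (adjusted p = 0.0143, up to 0.0901 and lost without DMSO 1, DMSO 2 or both arrays numbered 2), and MRPL30 fell by 1.19 ± 0.30 (adjusted p = 0.00834, and 0.102 without both arrays numbered 2). MRPL30 shares 6 further probe sets with its neighbour C2orf15, which were not used.

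MRPS6, a protein on the platform of the small subunit, had the largest change above 0 in each line, and it is named after its values were seen. In HL60 it lay at 10.63, 8.12 and 8.52 log2 units on PMA arrays, against 8.49, 6.44 and 6.58 on DMSO arrays, a change of 1.92 ± 0.88 (adjusted p = 0.142). In THP-1 it lay at 9.67, 9.35 and 6.85 on PMA arrays, against 8.63, 9.03 and 6.45 on DMSO arrays, a change of 0.59 ± 0.88. In U937 it lay at 10.81, 9.63 and 8.79 on PMA arrays, against 9.88, 9.63 and 7.81 on DMSO arrays, a change of 0.64 ± 0.88. The PMA and DMSO ranges overlapped in every line, while the same-numbered PMA array was higher in all pairs of HL60 and THP-1 and by 0.93, 0.00 and 0.97 in U937. With the block MRPS6 rose in all 3 lines, as did 4.05% of all genes, and it was the only member to do so (adjusted p = 4.22e-06 in HL60, 0.0376 in THP-1 and 0.0258 in U937). Over all settings its adjusted p reached 0.437, 0.980 and 0.997. It has 4 probe sets of its own and shares 3 with SLC5A3, a sodium and inositol transporter gene that overlaps it.

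**Figure D4:**
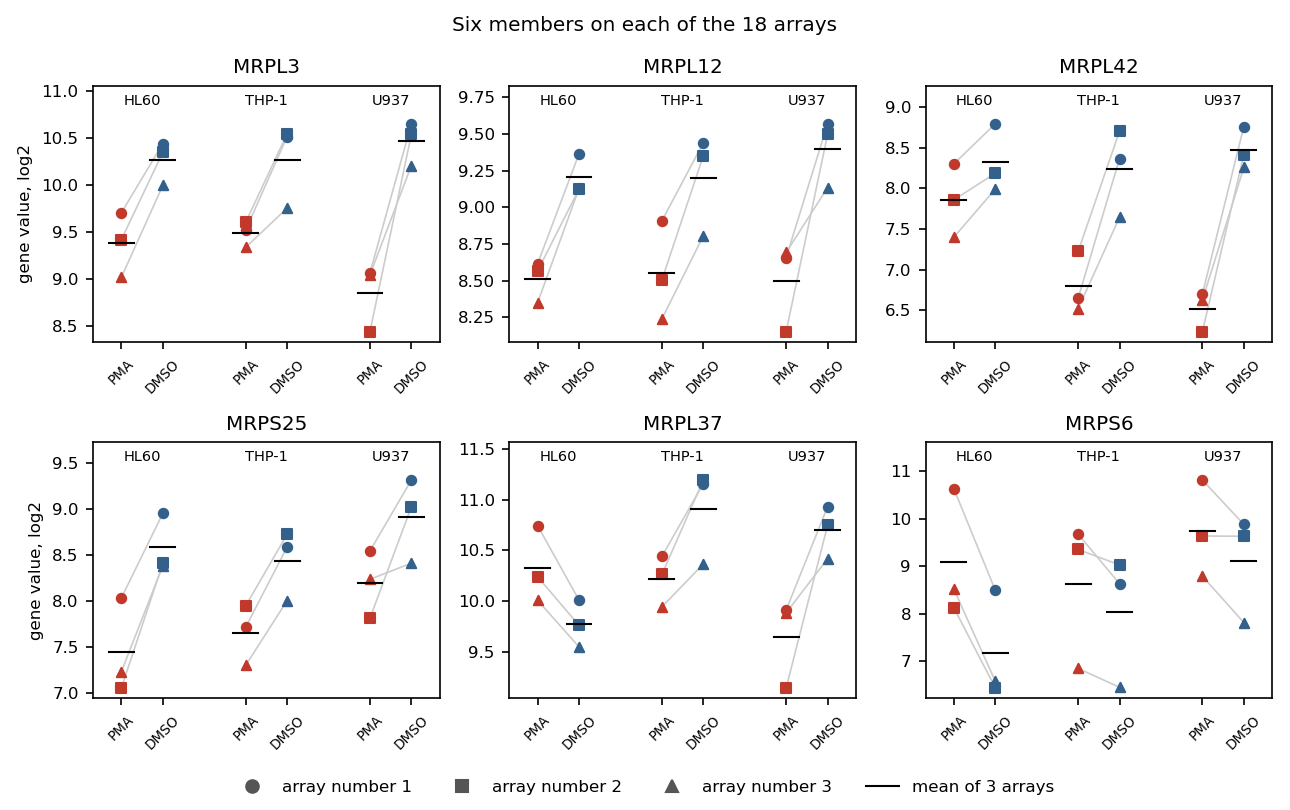
Gene values (log2) of MRPL3, MRPL12, MRPL42, MRPS25, MRPL37 and MRPS6 on each array, PMA in red left of DMSO in blue, in HL60, THP-1 and U937. Symbols give the array number, grey lines join same-numbered arrays and black bars are means of 3 arrays. MRPL3 is lower on the PMA array of every same-numbered pair, MRPL37 is higher with PMA in HL60 and lower in THP-1 and U937, and MRPS6 lies higher on arrays numbered 1 under both treatments in HL60.

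A further 6 members are given whatever their values, and none of them passed the test in any line without the block. MRPS18A, MRPS18B and MRPS18C are paralogues of 1 bacterial protein. They changed in U937 by -0.76 ± 0.29, -0.81 ± 0.33 and -0.91 ± 0.89, and in HL60 by 0.07 ± 0.29, 0.00 ± 0.33 and -0.11 ± 0.89. In THP-1 their changes were -0.20 ± 0.29, -0.06 ± 0.33 and -0.22 ± 0.89. MRPS30 changed by -0.88 ± 0.31 in U937 (adjusted p = 0.0542) and by 0.00 ± 0.31 in HL60, and the U937 values of these 4 members passed the test with the block. MRPL41, a mitochondrion-specific protein of the large subunit, changed by -0.50 ± 0.69 in U937 and 0.58 ± 0.69 in HL60. MRPS36 was the only member whose mean over the 18 arrays, 5.12, lay below the 30th percentile of probe sets (5.17), and it changed by -0.68 ± 0.68 in U937 (adjusted p = 0.641, or 0.0402 and called lower with the block, the only setting that called it).

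The 4 members with under 3 probe sets were fitted with genes of any number of probe sets. MRPS28, with 1 probe set, lay at 6.44, 5.61 and 6.28 on U937 PMA arrays, against 7.88, 7.86 and 7.58 on DMSO arrays, and fell by 1.66 ± 0.38 (adjusted p = 0.00372). In HL60 MRPS28 fell by 1.08 ± 0.38 (adjusted p = 0.0497), and in THP-1 it changed by -0.51 ± 0.38. The 4 probe sets it shares with TPD52 were not used. MRPL15 (1 probe set), MRPL36 and MRPL49 (2 each) did not pass the test in any line, with changes of -1.12 (MRPL36 in U937) to 0.15 (MRPL15 in HL60).

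Whether the PMA effect differed between lines was tested by interaction contrasts in limma. Between HL60 and U937, 4 members had a higher, that is less negative or positive, change in HL60 and 0 a lower one, or 5.56% against 5.98% of all genes higher and 1.75% lower (7.73% either way), a share near the background. MRPL37, a mitochondrion-specific protein of the large subunit, lay at 10.74, 10.24 and 10.01 log2 units on HL60 PMA arrays, against 10.01, 9.76 and 9.55 on DMSO arrays. In U937 it lay at 9.91, 9.15 and 9.89 on PMA arrays, against 10.93, 10.75 and 10.42 on DMSO arrays. Its change was 0.56 ± 0.27 in HL60 and -1.05 ± 0.27 in U937, a difference of 1.60 ± 0.38 (adjusted p = 0.0126). The HL60 groups touched, with PMA 3 and DMSO 1 both at 10.01, while the U937 groups did not overlap. MRPL37 passed the test as higher in HL60 with the block (adjusted p = 0.0328).

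MRPS7, a protein of the head of the small subunit, lay at 10.39, 10.14 and 10.05 on HL60 PMA arrays, against 10.14, 9.78 and 9.60 on DMSO arrays. In U937 it lay at 9.05, 8.34 and 9.24 on PMA arrays, against 10.08, 10.04 and 9.65 on DMSO arrays. MRPS7 changed by 0.35 ± 0.25 in HL60 and -1.05 ± 0.25 in U937, a difference of 1.40 ± 0.35 (adjusted p = 0.0184). MRPL17, the counterpart of a bacterial protein of the large subunit, changed by 0.28 ± 0.23 in HL60 and -0.87 ± 0.23 in U937, a difference of 1.16 ± 0.32 (adjusted p = 0.0343). For MRPL42 the difference was 1.48 ± 0.42 (adjusted p = 0.0377), with changes below 0 in both lines. Without both U937 arrays numbered 2, the adjusted p of the 4 rose to between 0.0623 and 0.149 and none passed, with differences of 1.33, 1.08, 0.89 and 1.37. With the block and without those arrays, all 4 passed. Single arrays also moved this count: 1 member passed without HL60 DMSO 3, HL60 PMA 1 or U937 DMSO 1, and 2 without HL60 DMSO 2, U937 DMSO 2 or U937 PMA 2, while 7 members passed without U937 PMA 3. Without HL60 DMSO 2, 4.41% of all genes had a higher and 1.37% a lower difference, against 2.78% of members higher. For the other runs the share of all genes is not given here.

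**Figure D5:**
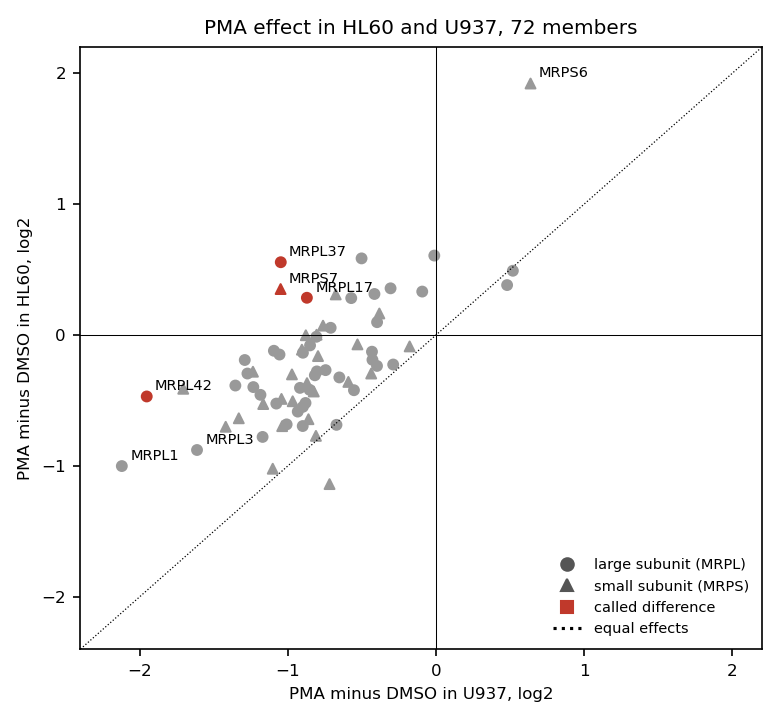
Change (PMA minus DMSO, log2 units) of the 72 members in HL60 (vertical axis) against U937 (horizontal axis), circles for large-subunit and triangles for small-subunit names. Red marks MRPL37, MRPS7, MRPL17 and MRPL42, whose changes differ between the lines at an adjusted p under 0.05. Most points lie above the dotted line of equal effects, and MRPS6 lies apart.

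Between HL60 and THP-1, and between THP-1 and U937, 0 members had a called difference in limma (4.89% of all genes higher and 2.89% lower in the HL60 and THP-1 pair, 7.78% either way, and 3.14%, 1.63% and 4.77% in the THP-1 and U937 pair). At an unadjusted p under 0.05 there were 3 higher and 1 lower in HL60 than in THP-1, and 4 higher and 0 lower in THP-1 than in U937. The share of all genes at that threshold is not given here, so no difference is read from these counts. With the block the counts were 4 for HL60 minus THP-1 (MRPL37, MRPS6, MRPS7 and MRPL42; 9.95% of all genes higher, 5.54% lower), 14 for HL60 minus U937 (13.1% and 3.35%) and 2 for THP-1 minus U937 (MRPL32 and MRPL23; 6.9% and 3.24%), all higher in the line named first. MRPL37 changed by -0.69 ± 0.27 and MRPS7 by -0.67 ± 0.25 in THP-1, both called lower with the block alone. Across the 72 members, the changes in THP-1 and U937 had a Pearson correlation of 0.84, those in HL60 and THP-1 0.64 and those in HL60 and U937 0.66. Over all genes these were 0.69, 0.67 and 0.67. Members share their arrays and are not independent.

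The array also measures parts of transcripts, and a probe set was called where its change differed from the rest of its gene by at least 1 log2 unit at an adjusted p under 0.05 (limma's diffSplice). Of 577 probe sets in 63 members, 0 were called in HL60, 0 in THP-1 and 2 in U937, against 2.79%, 1.5% and 1.01% of all 175163 probe sets tested. In U937, 1 probe set of MRPL42 stood 1.96 log2 units above the rest of its gene (adjusted p = 0.0132), and 1 of MRPS16, the counterpart of a bacterial small-subunit protein, stood 1.21 above (adjusted p = 0.0466). With the gene's mean subtracted from each probe set (a splicing index), the MRPL42 probe set passed (adjusted p = 0.0415) and the MRPS16 one did not (adjusted p = 0.0952). With the block 5, 2 and 21 member probe sets were called in HL60, THP-1 and U937. Without U937 DMSO 1, DMSO 2, PMA 1 or PMA 2 the U937 count was 0, and without DMSO 3 or PMA 3 it was 6. The shares of all probe sets above belong to the fit without a block on all arrays. For the block and for the runs without 1 array these shares are not given here, so their counts have no background beside them. The test treats the probe sets of a gene as independent and equally variable. Exon positions were not used here.

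The genes that serve the same ribosome were described from lists, chosen with earlier results of these data known. Their U937 counts and changes include the U937 PMA 2 array and are not given by array number. Among 5 other proteins of the mitochondrial ribosome, 1 fell in HL60, 1 in THP-1 and 2 in U937, where 10.7%, 13.2% and 16.5% of all genes fell, with medians of -0.28, -0.13 and -0.93. PTCD3, a small-subunit protein of the pentatricopeptide repeat type, fell in all 3 lines, with changes of -1.01 ± 0.27 in HL60, -1.07 ± 0.27 in THP-1 and -1.34 ± 0.27 in U937. MRPL58, a peptidyl-tRNA hydrolase built into the large subunit that the platform annotation names ICT1 and the rule therefore left out, fell by 1.03 ± 0.30 in U937. DAP3, a GTP-binding protein of the small subunit, changed by -0.54 ± 0.44, -0.13 ± 0.44 and -0.13 ± 0.44 and did not pass the test.

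Among 16 translation factors, 3 fell and 1 rose in HL60, 6 fell in THP-1 and 9 in U937. The shares that fell were 18.8%, 37.5% and 56.2%, against 10.7%, 13.2% and 16.5% of all genes, with medians of -0.34, -0.65 and -0.90. LRPPRC, which stabilizes mitochondrial messenger RNA, fell in all 3 lines, with changes of -1.58 ± 0.24 in HL60, -1.48 ± 0.24 in THP-1 and -1.47 ± 0.24 in U937. Its partner SLIRP fell too, with -0.80 ± 0.17, -0.87 ± 0.17 and -1.13 ± 0.17 in the same order. The elongation GTPase GUF1 fell in THP-1 (-1.15 ± 0.22) and U937 (-1.33 ± 0.22). MTFMT, the enzyme that formylates the initiator transfer RNA, rose by 0.95 ± 0.29 in HL60. With the block, 6, 11 and 12 factors fell, where 16%, 20.7% and 25.5% of all genes fell.

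Among 27 genes of ribosome assembly and RNA processing, 8 fell and 1 rose in HL60, 9 fell in THP-1 and 19 in U937. The shares that fell were 29.6%, 33.3% and 70.4%, against 10.7%, 13.2% and 16.5% of all genes, with medians of -0.41, -0.64 and -0.87. The RNA-degrading enzyme PNPT1 fell in all 3 lines, with changes of -1.55 ± 0.34 in HL60, -1.93 ± 0.34 in THP-1 and -2.04 ± 0.34 in U937. Its partner, the helicase SUPV3L1, fell with -1.04 ± 0.31, -1.05 ± 0.31 and -1.07 ± 0.31. METTL15, a methyltransferase of the small-subunit RNA, fell with -1.16 ± 0.22, -1.42 ± 0.22 and -1.20 ± 0.22. MPV17L2, an assembly factor of the large subunit, rose by 0.98 ± 0.26 in HL60. With the block 13 fell and 2 rose in HL60, 15 fell in THP-1 and 22 in U937, where 16%, 20.7% and 25.5% of all genes fell.

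Among 15 mitochondrial aminoacyl-tRNA synthetases, 4 fell in HL60, 3 in THP-1 and 10 in U937 (26.7%, 20% and 66.7%, against 10.7%, 13.2% and 16.5% of all genes), with medians of -0.31, -0.53 and -0.88. With the block 7 fell in THP-1, where 20.7% of all genes fell. NARS2, which charges the asparagine transfer RNA, fell by 2.00 ± 0.31 in HL60, and it also fell in THP-1 (-1.20 ± 0.31) and U937 (-1.90 ± 0.31). MARS2, its counterpart for methionine, fell with -1.42 ± 0.28, -1.19 ± 0.28 and -1.66 ± 0.28 in the same order.

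Among 15 regulators of mitochondrial transcription and biogenesis, 4 fell in HL60, 5 in THP-1 and 9 in U937 (26.7%, 33.3% and 60%, against 10.7%, 13.2% and 16.5% of all genes), with medians of -0.23, -0.46 and -0.75. With the block 8 fell in THP-1, where 20.7% of all genes fell. MYC, a transcription factor of growth genes, fell in all 3 lines, with changes of -1.93 ± 0.32 in HL60, -1.05 ± 0.32 in THP-1 and -1.89 ± 0.32 in U937. TFAM, which packs and transcribes mitochondrial DNA, fell in HL60 (-1.29 ± 0.43) and U937 (-1.97 ± 0.43), and changed by -0.99 ± 0.43 in THP-1. The factor NRF1, whose letters were searched above, fell in HL60 (-0.58 ± 0.19) and U937 (-0.70 ± 0.19), with -0.46 ± 0.19 in THP-1. GABPA, the ETS subunit of GABP, fell in THP-1 (-0.95 ± 0.22) and U937 (-0.70 ± 0.22), with -0.11 ± 0.22 in HL60. The coactivator PPARGC1A fell by 1.53 ± 0.22 in U937, with 0.20 ± 0.22 in THP-1 and -0.04 ± 0.22 in HL60.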

How the data were processed

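Per the labels, biotin-labelled cDNA of total RNA was hybridised to human exon arrays, and the tool named in the submitters' processing notes is Affymetrix Expression Console. The deposited values are exon-level probe-set values on the log2 scale. For background correction, normalization, summary and genome build, the method is not given in the sources used here. Values were used as deposited. Of 287329 probe sets, 261273 had 1 gene symbol in the platform annotation, 9155 several and 16901 none, and only those with 1 were used.

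A single limma fit (version 3.58.1, R 4.3.3) on the gene values had 1 coefficient per group, 6 in all (12 residual degrees of freedom), two-sided, with Benjamini-Hochberg adjustment over all 16241 genes. Interaction contrasts compared the lines, and diffSplice tested probe sets above the 30th percentile in genes with at least 5 of them. Same-numbered PMA and DMSO arrays of a line were taken as pairs because the deviations from the group means correlated in all 9 (r = 0.285 to 0.79 over genes, against -0.654 to 0.437 for unlike numbers, which in THP-1 and U937 reach past the lowest like-numbered value), and the number was fitted as a block within each line as an alternative. Array-median centring, quantile normalization, medians of probe sets, other filters, lines fitted alone, array numbers left out and single arrays left out were further alternatives. Fits were also run on simulated data with known changes and independent noise for each gene or probe set. The simulated arrays had no deviations shared by many genes, so the runs do not cover the deviations described above. In simulated data with unequal probe-set variances, diffSplice called unchanged probe sets.

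Members and lists were chosen with earlier results of these data known, so no p-value is given for a list. Named members are those that passed the test with the largest change (6 per line and direction), in all 3 lines or between lines, 7 fixed members, and those with under 3 probe sets or a called probe set. Of each list up to 4 called genes per line and 6 fixed genes were eligible. AURKAIP1, YBEY and VARS2 are not analysed here.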

Additional observations from a re-analysis of the deposited data

Results flagged for a closer look

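The PMA effect differed between HL60 and U937, by a test of the difference itself in limma, for 4 members, or 5.56% against 5.98% of all genes, a share near the background. None of the 4 passed without both U937 arrays numbered 2 (adjusted p of 0.0623 to 0.149). The difference (HL60 minus U937) was 1.60 ± 0.38 log2 units (SE) for MRPL37, 1.48 ± 0.42 for MRPL42, 1.40 ± 0.35 for MRPS7 and 1.16 ± 0.32 for MRPL17. No group had the 4 arrays that a test for a single outlying array needs.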

How the results depend on the processing

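Among the called and fixed genes followed through the alternatives, no value past the test's threshold changed sign. MRPS6, MRPS33, MRPL48 and MRPS35, named after their values were seen, were not in that check. Under the replicate block 0 of the values in the check lost their call and 29 gained one. Without both U937 arrays numbered 2, 26 lost it and 3 gained one. With medians of probe sets 14 lost it and 5 gained one. Without both HL60 arrays numbered 1 these were 11 and 2. Over all runs that left out 1 array, 155 calls were lost and 34 gained. With the replicate block, members called higher and lower numbered 4 and 17 in HL60, 1 and 19 in THP-1, and 2 and 55 in U937, called differences 4 (HL60 minus THP-1), 14 (HL60 minus U937) and 2 (THP-1 minus U937), and member probe sets 5, 2 and 21. With block and centring these were 4 and 30, 4 and 24, 3 and 52, then 6, 12 and 5, then 6, 7 and 29. The members lower were 41.7% in HL60, 33.3% in THP-1 and 72.2% in U937, against 20.4%, 21.8% and 21.1% of all genes. The members higher were 5.56%, 5.56% and 4.17%, against 19.5%, 23.7% and 21.4%. Differences were called higher for 11%, 10.1% and 7.76% of all genes and lower for 10.4%, 8.4% and 7.12%. No probe-set count under this heading has a share of all probe sets beside it. With the block and without both U937 arrays numbered 2, chosen after seeing the data, the member counts were 6 and 24, 2 and 28, 3 higher in U937. The differences were then 6, 8 and 1. The members lower were 33.3% in HL60 and 38.9% in THP-1, against 18.4% and 23.9% of all genes. The members higher were 8.33%, 2.78% and 4.17%, against 22.9%, 18.3% and 11.6%. Differences were called higher for 13.3%, 8.71% and 4.89% of all genes and lower for 7.18%, 4.33% and 5.15%. Without those arrays and without a block, 6 members were lower in U937 (8.33%, against 10.2% of all genes) and U937 probe sets numbered 0. Differences numbered 2 and 0 (HL60 minus THP-1 and minus U937). Those 2 were higher in HL60 (2.78%, against 8.42% of all genes higher and 4.36% lower). Centring alone gave 7 lower in HL60 and 7 in THP-1 (9.72% in both, against 14.9% and 15.7% of all genes), and 1 higher in U937. It also gave 3 differences (HL60 minus THP-1) and 5 U937 probe sets. Of all genes, 7.12% had a higher and 6.15% a lower difference in that pair. Centring set the median of all genes in U937 to 0.17, with 14.4% of all genes higher and 14.3% lower, and the members' median to -0.62. Quantile normalization gave 1 and 7 in HL60, 7 lower in THP-1, 1 higher in U937, 3 differences (HL60 minus THP-1), and 1 and 5 probe sets in THP-1 and U937. The members lower were 9.72% in both HL60 and THP-1, against 14.8% and 16.1% of all genes. In U937 the members higher were 1.39%, against 13.2%. Of all genes, 8.08% had a higher and 6.18% a lower difference in the HL60 and THP-1 pair. Medians of probe sets gave 1 higher in HL60 (1.39%, against 11.6% of all genes) and 7 lower in THP-1 (9.72%, against 12.4%). They also gave 1 difference (HL60 minus U937; 1.39%, against 4.81% higher) and a large-minus-small difference of -0.028 in HL60. By structure the large-minus-small difference was 0.137 in HL60 and 0.0835 in THP-1. THP-1 fitted alone gave 2 lower (2.78%, against 13% of all genes), and the splicing index 2 probe sets in HL60. Leaving out both THP-1 arrays numbered 3, chosen after seeing the data, gave 1 higher in HL60 (1.39%, against 12.4%). It also gave 1 difference (HL60 minus THP-1), or 1.39% against 4.45% of all genes higher.

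Leaving out 1 array at a time, members lower ranged from 1 to 6 in HL60, 1 to 14 in THP-1 and 14 to 33 in U937, members higher were 0 in HL60 and U937 and 0 to 1 in THP-1, and differences ranged from 0 to 2, 1 to 7 and 0 to 0 in the order above. The share of all genes called moved between these runs too. In HL60, 10.7% of all genes were lower with all arrays and 8.21% without HL60 DMSO 1. The ranges of that share are not given here, so the ranges of the member counts have no background beside them. Member medians ranged from -0.60 to -0.03 in HL60, -0.71 to -0.02 in THP-1 and -1.06 to -0.67 in U937. Large minus small ranged from -0.0241 to 0.162, -0.119 to 0.083 and -0.0259 to 0.02, and probe sets from 0 to 2, 0 to 2 and 0 to 6. All other alternatives moved no count by over 1.5 times. The causes were not tested.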

Other observations

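Some members followed the array number more than the treatment, and these are given as values, chosen after they were seen. MRPL36, with 2 probe sets, lay at 9.47, 6.37 and 6.13 log2 units on HL60 PMA arrays 1, 2 and 3, against 9.45, 6.94 and 6.28 on the HL60 DMSO arrays. In THP-1 MRPL36 lay at 9.01, 9.10 and 6.24 on PMA arrays, against 8.93, 9.40 and 5.75 on DMSO arrays. MRPS18C lay at 7.96, 5.72 and 5.23 on HL60 PMA arrays, against 7.97, 5.98 and 5.30 on DMSO arrays, and at 7.13, 7.44 and 5.41 on THP-1 PMA arrays, against 7.57, 8.06 and 5.01 on DMSO arrays. MRPL41 lay at 8.82, 7.43 and 6.70 on HL60 PMA arrays, against 8.47, 6.58 and 6.16 on DMSO arrays. In these genes the spread between arrays of 1 group exceeded the difference between the treatments.

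Relative to all genes, the members' mean stood 1.41 ± 0.45 log2 units above the mean of all genes on HL60 PMA arrays and 1.73 ± 0.40 above it on HL60 DMSO arrays (SD, n = 3). In THP-1 these were 1.52 ± 0.46 with PMA and 1.85 ± 0.51 with DMSO, and in U937 1.50 ± 0.23 with PMA and 2.13 ± 0.46 with DMSO.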
